A study of Mus musculus with 10 samples.

Results

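Genes of mature oligodendrocytes and their myelin were examined in the hypothalamus of mice bearing C26 tumours, which come from a transplanted mouse colon adenocarcinoma line and are widely used to study cachexia. Of 32 listed genes, 29 had a probe set paired with that gene alone in the platform annotation, out of 18820 genes with such a probe set in all. Mbp and Nkx6-2 were represented only by a probe set shared with a second gene, and Enpp2 was in none of the annotation used here, so these 3 were not analysed here. All 29 passed the filter on low values, which asked for at least 3 of the 8 single arrays to exceed a log2 level of 4.32, which is 20 in linear units. Of the 29, 28 were above it on all 10 arrays. The exception was Gjb1, described below.

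Male CDF1 mice, 10 to 11 weeks old, of a BALB/c by DBA/2 cross, had 1000000 C26 cells injected under the skin of the right flank in 0.2 ml of Hanks' solution, or a sham injection of the solution alone. The hypothalamus was removed on day 20. Single mice were hybridised to 1 array each, 3 controls and 5 tumour-bearing animals, and 1 further array per group held RNA pooled from 4 control and 5 tumour-bearing mice. The model rests on 1 tumour line, and it is not stated whether single mice also went into the pools, so the pools entered the fit only as an alternative and are given as values beside the single arrays. Levels are log2 values made with RMA (robust multi-array averaging), a difference is tumour-bearing minus control on that scale, and SE is the standard error of that difference from limma.

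Oligodendrocytes wrap axons in myelin, a stack of compacted membrane rich in cholesterol and galactolipids. The cells arise from precursors marked by Pdgfra and Cspg4, and the transcription factors Olig2, Sox10 and Myrf carry them through differentiation to the point where Mag, Mog and the other myelin genes are expressed. In the hypothalamus they lie mostly in and beside fibre tracts, such as the fornix and the optic tract, and are sparser among the nuclei themselves.

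Of the 29 genes, 0 passed the threshold of 0.05 in either direction when p-values were adjusted over all 22837 tested probe sets (limma with Benjamini-Hochberg adjustment, adjusted p from 0.241 to 0.986). Over all 12978 genes tested, 0% were called lower and 0.0771% higher (0.0569% of probe sets). All 29 differences were below 0, from -0.95 for Opalin to -0.01 for Olig2, except that Olig2 came out above 0 with array weights and under both other scalings tried. Their median was -0.31, against -0.01 over all tested genes, of which 54.5% were below 0. At an unadjusted p under 0.05, 17 of the 29 were lower and 0 higher, against 6.51% lower and 3.78% higher over all genes. The 5 tumour-bearing mice lay below all 3 controls in 8 of the 29, against 5.19% of all genes, and above all 3 in 0, against 3.11%. Leaving out control 1 gave 17 genes with all tumour-bearing mice below all controls, and leaving out tumour-bearing mouse 2 gave 19. No share over all genes is given for these smaller groups, which separate more easily. In bulk tissue, fewer oligodendrocytes and less of these RNAs per oligodendrocyte cannot be told apart.

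**Figure D1:**
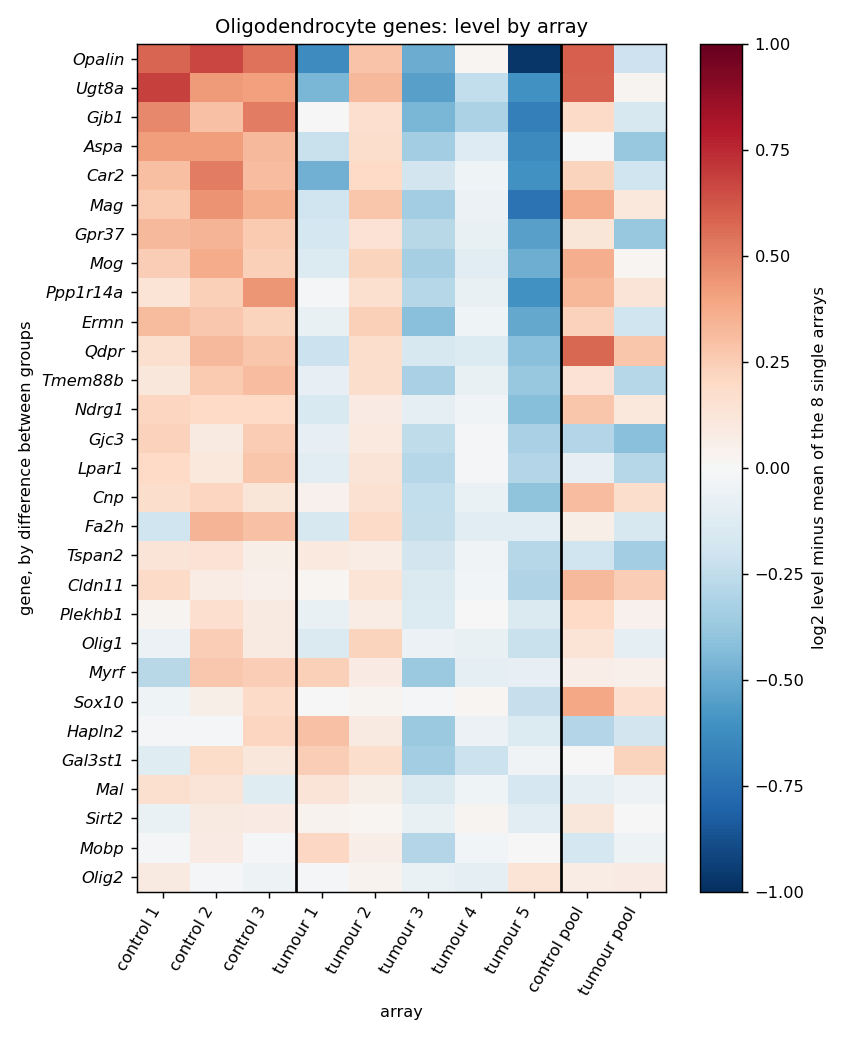
Level of each of the 29 genes (rows, ordered by their difference) on each of the 10 arrays (columns), as the log2 level minus the mean of the 8 single arrays. The upper rows are above that mean in the 3 controls and below it in most tumour-bearing mice, least so in mouse 2 and most so in mouse 5.

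The tumour-bearing animals were not alike. Mouse 5 had the lowest of the 8 single values in 23 of the 29 genes, mouse 3 in 5 and mouse 4 in 1. Mouse 2 was the highest of its group in 21 genes and lay below all controls in only 8, whereas mice 3, 4 and 5 lay below all controls in 28, 24 and 24 genes and mouse 1 in 19. The mean of the 29 centred levels was 0.16, 0.24 and 0.22 in controls 1, 2 and 3. In tumour-bearing mice 1 to 5 it was -0.07, 0.15, -0.26, -0.08 and -0.36. Mouse 2 thus lay just under the lowest control by this measure. The pool of controls was at 0.16 and that of tumour-bearing mice at -0.06.

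Among structural and axon-contact proteins, the 10 measured genes ran from -0.95 to -0.02, with a median difference of -0.23 and 5 of 10 lower at an unadjusted p under 0.05. That count was 3 without control 1, against 7.22% of all genes, and 3 without tumour-bearing mice 3 and 4, against 4.89%. Opalin, a small membrane glycoprotein of the paranodal loops and inner tongue of myelin, was at 6.91, 7.00 and 6.88 in the controls and at 5.71, 6.62, 5.84, 6.36 and 5.36 in the tumour-bearing mice. The groups did not overlap, and the tumour-bearing values were spread far more widely than the controls. The mean went from 6.93 ± 0.07 (SD, n = 3) to 5.98 ± 0.51 (SD, n = 5), or 51.7% of the control level on the linear scale, and the difference was -0.95 ± 0.25 SE (limma adjusted p = 0.276). In the pools Opalin was at 6.93 and 6.13.

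Mag, the myelin-associated glycoprotein of the membrane facing the axon, was at 9.50, 9.68 and 9.59 in the controls. In the tumour-bearing mice it was at 9.04, 9.51, 8.89, 9.17 and 8.49. Only mouse 2 reached the control range, and the difference was -0.57 ± 0.18 SE (limma adjusted p = 0.344). Mog, the glycoprotein on the outermost face of the sheath, was at 9.08, 9.20 and 9.07 in the controls and at 8.70, 9.06, 8.51, 8.72 and 8.35 in the tumour-bearing mice. Here mouse 2 lay just under the lowest control, so the groups did not overlap (-0.45 ± 0.13 SE, limma adjusted p = 0.304). Ermn, ermin, a cytoskeletal protein of late oligodendrocytes, was at 8.88, 8.84 and 8.80 and at 8.49, 8.81, 8.15, 8.53 and 8.06, with mouse 2 inside the control range (-0.43 ± 0.15 SE, limma adjusted p = 0.376).

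Mobp, a basic protein of compact myelin, had the difference nearest to 0 in this group. It was at 9.97, 10.08 and 9.97 in the controls and at 10.20, 10.06, 9.71, 9.97 and 9.99 in the tumour-bearing mice. The groups overlapped, with mouse 1 above every control and mouse 3 well below every one. The difference was -0.02 ± 0.09 SE, with a 95% interval from -0.23 to 0.19, which leaves out a change as large as that of Mog. Mal, a raft-associated myelin proteolipid, differed by -0.09 ± 0.08 SE, and Hapln2, a link protein of the matrix at nodes of Ranvier, by -0.10 ± 0.13 SE. Cnp, the myelin nucleotide phosphodiesterase, Tspan2, a tetraspanin, and Cldn11, the claudin that seals the myelin lamellae, lay between, at -0.28, -0.18 and -0.17.

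**Figure D2:**
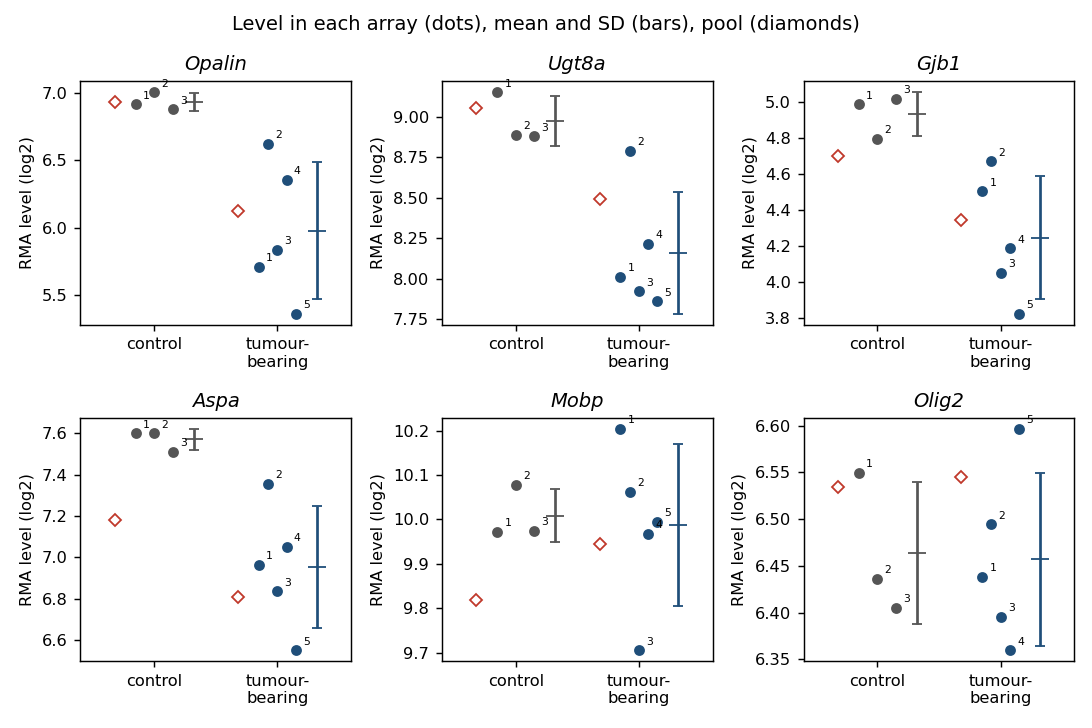
Log2 RMA levels of the 4 genes with the largest differences and the 2 with the smallest, in control (grey) and tumour-bearing (blue) mice. Dots are single arrays with the replicate number beside them, bars are mean and SD, open diamonds are the pools, and each panel has its own axis, which does not start at 0. Opalin, Ugt8a, Gjb1 and Aspa do not overlap between groups, whereas Mobp and Olig2 do.

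The myelin lipid enzymes had a median difference of -0.43, and 2 of 4 were lower at an unadjusted p under 0.05. Ugt8a, which makes galactosylceramide, was at 9.15, 8.89 and 8.88 in the controls and at 8.01, 8.79, 7.92, 8.22 and 7.86 in the tumour-bearing mice. Mouse 2 lay near the controls and the other 4 mice lay well below them. The mean was 8.97 ± 0.15 (SD, n = 3) and 8.16 ± 0.38 (SD, n = 5), or 56.9% of the control level, and the difference was -0.81 ± 0.19 SE (limma adjusted p = 0.241, and 0.0134 to 0.813 over the alternatives). Without tumour-bearing mouse 2 it was -0.97 and Ugt8a fell past the threshold (limma adjusted p = 0.0134). In that fit 0.232% of all genes were lower past the threshold, against 0% in the main fit. Aspa, which splits N-acetylaspartate and frees acetate for lipid synthesis, was at 7.60, 7.60 and 7.51 and at 6.96, 7.36, 6.84, 7.05 and 6.55, again without overlap (-0.62 ± 0.15 SE, limma adjusted p = 0.246).

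The 2 enzymes that act beside Ugt8a on the same lipids differed less. Fa2h, which adds the hydroxyl group found on myelin fatty acids, differed by -0.24 ± 0.13 SE, and by -0.41 without control 1, whose level of 8.00 lay among the tumour-bearing values. Gal3st1, which turns galactosylceramide into sulfatide, was at 5.17, 5.48 and 5.41 in the controls. In the tumour-bearing mice it was at 5.54, 5.47, 4.94, 5.08 and 5.26. The groups overlapped, the difference was -0.09 ± 0.15 SE, and the tumour-bearing pool lay above the control pool, at 5.52 against 5.30.

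Both connexin genes were lower at an unadjusted p under 0.05. Gjb1, connexin 32, was at 4.99, 4.80 and 5.02 in the controls and at 4.51, 4.67, 4.05, 4.19 and 3.83 in the tumour-bearing mice, without overlap. The difference was -0.69 ± 0.20 SE (limma adjusted p = 0.294). As 3 tumour-bearing mice lay below the filter level of 4.32, its size is uncertain, and it was -0.51 when lower values were set to 4.32. Gjc3, connexin 29, was at 9.83, 9.69 and 9.86 and at 9.52, 9.70, 9.35, 9.58 and 9.27. Only mouse 2 entered the control range (-0.31 ± 0.09 SE, limma adjusted p = 0.304).

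The transcription factors of the lineage showed small differences, with a median of -0.12 and 0 of 4 lower at an unadjusted p under 0.05. That median was -0.19 without control 1, -0.052 without control 2 and -0.045 without control 3. Without tumour-bearing mouse 2, 1 of 4 was lower, against 7.17% of all genes. Olig2, needed to specify the lineage and also expressed in precursors, was at 6.55, 6.44 and 6.41 in the controls and at 6.44, 6.49, 6.40, 6.36 and 6.60 in the tumour-bearing mice. The groups overlapped, and mouse 5, the lowest for most of the myelin genes, was the highest for Olig2. The difference was -0.01 ± 0.07 SE, with a 95% interval from -0.17 to 0.16. Olig1 differed by -0.15 ± 0.10 SE, Sox10 by -0.11 ± 0.09 SE, and Myrf, which switches on the myelin genes, by -0.12 ± 0.16 SE. Myrf lay at 7.23 in control 1 against 7.77 and 7.75 in controls 2 and 3, and differed by -0.30 without control 1.

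Of the 2 receptors, Gpr37, an orphan receptor of differentiating oligodendrocytes, was at 8.84, 8.86 and 8.78 in the controls and at 8.34, 8.66, 8.24, 8.44 and 7.98 in the tumour-bearing mice. The groups did not overlap (-0.50 ± 0.13 SE, limma adjusted p = 0.265). Lpar1, a receptor for lysophosphatidic acid, was at 7.43, 7.34 and 7.51 and at 7.13, 7.36, 6.95, 7.21 and 6.94, with mouse 2 inside the control range (-0.31 ± 0.10 SE, limma adjusted p = 0.339).

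Among the cytoplasmic enzymes, regulators and small membrane proteins, 6 of 7 were lower at an unadjusted p under 0.05 and the median difference was -0.37. Car2, the carbonic anhydrase of oligodendrocytes, was at 9.97, 10.19 and 9.98 in the controls and at 9.19, 9.88, 9.49, 9.64 and 9.07 in the tumour-bearing mice, without overlap (-0.60 ± 0.16 SE, limma adjusted p = 0.284). Qdpr, which regenerates tetrahydrobiopterin, was at 9.52, 9.68 and 9.64 and at 9.15, 9.54, 9.20, 9.22 and 8.94 (-0.40 ± 0.11 SE, limma adjusted p = 0.277, and 0.0490 to 0.858 over the alternatives). Mouse 2 again stood among the controls, and without it Qdpr fell past the threshold (-0.49, limma adjusted p = 0.0490), as did 0.232% of all genes.

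Ppp1r14a, an inhibitor of myosin phosphatase, was at 7.17, 7.27 and 7.47 in the controls and at 7.03, 7.19, 6.75, 6.96 and 6.43 in the tumour-bearing mice (-0.43 ± 0.16 SE, limma adjusted p = 0.393). Tmem88b was at 7.90, 8.04 and 8.09 and at 7.70, 7.96, 7.45, 7.71 and 7.40 (-0.37 ± 0.12 SE, limma adjusted p = 0.344). In both genes mouse 2 was the only tumour-bearing animal above the lowest control. Ndrg1, a gene mutated in a hereditary demyelinating neuropathy, did not overlap between groups (-0.33 ± 0.09 SE), and Plekhb1 differed by -0.15 ± 0.06 SE. Sirt2, a tubulin deacetylase abundant in myelin, was at 9.63, 9.79 and 9.78 and at 9.73, 9.72, 9.62, 9.73 and 9.59. The groups overlapped, with a difference of -0.06 ± 0.05 SE.

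**Figure D3:**
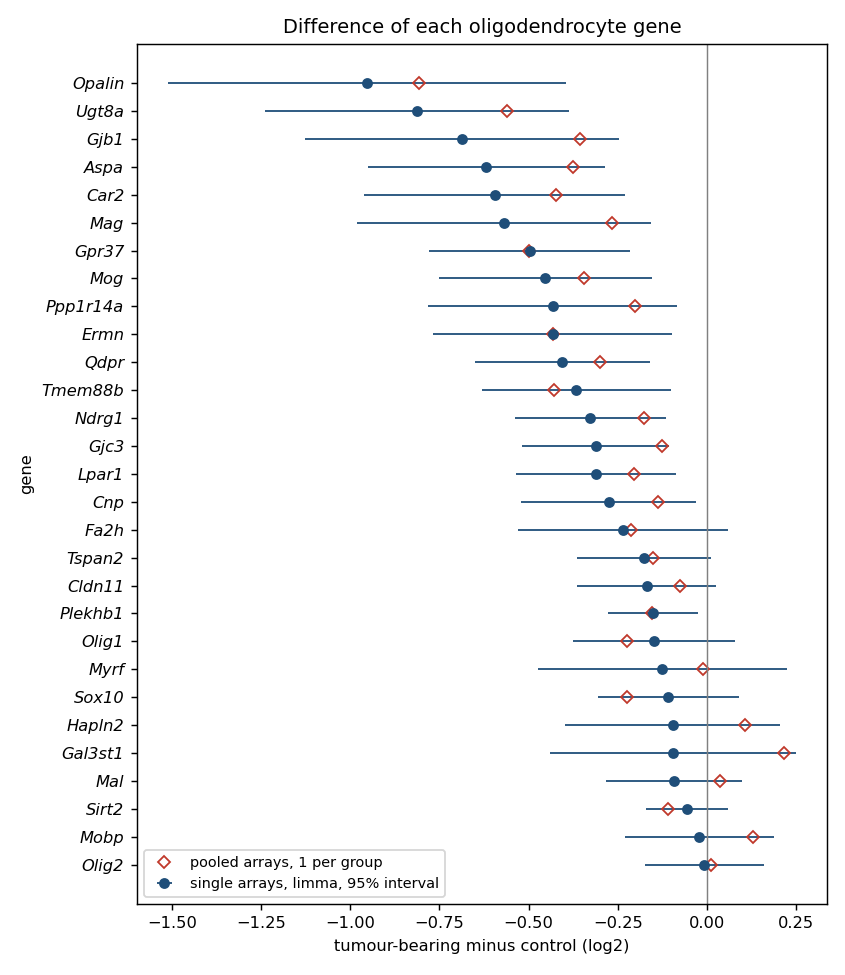
Difference of each gene between groups in log2 units. Filled dots are limma estimates from the 8 single arrays with 95% intervals, and open diamonds are the tumour-bearing pool minus the control pool, 1 array each. Single-array estimates run from -0.95 for Opalin to -0.01 for Olig2, and 24 of the 29 pool differences are below 0.

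In the pools 24 of the 29 genes were lower in the tumour-bearing array and 5 higher, against 52.7% lower over all tested genes, with a median difference of -0.21. Opalin differed by -0.81 between the pools, Ugt8a by -0.56 and Gpr37 by -0.50. The 5 on the other side were Gal3st1 (0.22), Mobp (0.13), Hapln2 (0.11), Mal (0.04) and Olig2 (0.01). In the single arrays all 5 of these had differences of -0.10 or nearer to 0. The control pool of Aspa, at 7.18, lay below all 3 single controls and above 4 of the 5 tumour-bearing mice, and its difference between the pools was -0.38. Each pool is a single array, and the pools may share mice with the single arrays, so they are no replication.

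Proximal promoter sequence was set beside these differences, since many of the genes were lower in the same animals. RefSeq sequence (build GRCm38.p6) was found for 24 of the 32 genes, and 17 measured genes had exactly 1 start site there. Shown are the 250 bases before the start of the 2 genes of the 17 with the largest and the 2 with the smallest differences: Opalin (chr19:41077114-41077363, minus strand), Ugt8a (chr3:125938653-125938902, minus strand), Mobp (chr9:120149492-120149741, plus strand) and Olig2 (chr16:91225300-91225549, plus strand). Sequences run 5′ to 3′ on the strand of the gene, and capitals mark ACAAAG on either strand, the core recognised by SOX factors such as Sox10.
Opalin: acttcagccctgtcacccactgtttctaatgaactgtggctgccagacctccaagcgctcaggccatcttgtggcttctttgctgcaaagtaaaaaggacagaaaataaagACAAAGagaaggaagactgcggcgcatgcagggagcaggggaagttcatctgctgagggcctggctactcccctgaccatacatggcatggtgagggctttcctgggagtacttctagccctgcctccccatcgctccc
Ugt8a: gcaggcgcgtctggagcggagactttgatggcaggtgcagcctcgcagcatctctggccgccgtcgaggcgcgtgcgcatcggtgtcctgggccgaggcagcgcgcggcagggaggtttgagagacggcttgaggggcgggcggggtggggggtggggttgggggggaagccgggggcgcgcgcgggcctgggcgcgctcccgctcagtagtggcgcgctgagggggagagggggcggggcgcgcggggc
Mobp: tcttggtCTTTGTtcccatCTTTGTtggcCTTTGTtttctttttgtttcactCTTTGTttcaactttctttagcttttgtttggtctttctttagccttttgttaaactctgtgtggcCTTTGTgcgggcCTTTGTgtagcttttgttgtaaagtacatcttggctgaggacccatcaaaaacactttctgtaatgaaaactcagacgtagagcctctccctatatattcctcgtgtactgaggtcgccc
Olig2: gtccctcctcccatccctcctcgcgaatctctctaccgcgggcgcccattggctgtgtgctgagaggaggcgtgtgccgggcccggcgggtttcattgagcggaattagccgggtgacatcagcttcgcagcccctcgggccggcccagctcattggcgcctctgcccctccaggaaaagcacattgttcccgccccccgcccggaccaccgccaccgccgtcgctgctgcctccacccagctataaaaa

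The window of Opalin held ACAAAG 1 time, that of Mobp 6 times, and those of Ugt8a and Olig2 did not hold it. Guanine and cytosine made up 54.4% of the Opalin window, 76.8% for Ugt8a, 40.8% for Mobp and 66.8% for Olig2. Of the 17 genes, 3 held ACAAAG (Mobp, Opalin and Cnp), against 16.5% of all 32851 promoter windows of this length. CTGGCAC, a core bound by Myrf, was in 2 of the 17 (Cnp and Hapln2) against 4.19% of all windows, and CATATG, an E-box of the kind bound by Olig2, in 0 against 3.46%. Both strands were searched, and none of the 4 windows shown held CTGGCAC or CATATG, so no match there overlaps another. Opalin and Mobp, which both held ACAAAG, stood near opposite ends of the measured differences.

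Other genes of mature oligodendrocytes, 42 listed and 38 tested, had a median difference of -0.23. Of them 0 passed the threshold in either direction, and 22 were lower and 1 higher at an unadjusted p under 0.05. Past the threshold 3 were lower without tumour-bearing mouse 2, against 0.232% of all genes. With p-values adjusted over probe sets with 1 gene alone 2 were lower, against 0.223%. Klk6, a secreted protease of oligodendrocytes, was at 6.79, 7.16 and 7.18 in the controls and from 5.58 to 6.67 in the tumour-bearing mice, without overlap (-1.05 ± 0.23 SE, limma adjusted p = 0.213). Pllp, plasmolipin, differed by -0.77 ± 0.19 SE, the protease gene Adamts4 by -0.59 ± 0.15 SE, and Trf, transferrin, by -0.54 ± 0.13 SE. Of the 38, 32 were below 0 and 6 above. Apod, the 1 higher at an unadjusted p under 0.05, differed by 0.27 ± 0.07 SE (limma adjusted p = 0.277). All 5 tumour-bearing mice exceeded all controls in Apod, as in 3.11% of all genes, and the pools differed by 0.28.

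Precursor and newly formed oligodendrocyte genes had a median difference of -0.06, with 10 of 16 below 0 and 6 above. At an unadjusted p under 0.05, 4 of 16 were lower. The count was 2 without control 2 or without control 3, against 4.61% and 5.15% of all genes. The median was -0.041 without tumour-bearing mouse 3. The larger differences were in Enpp6 (-0.57 ± 0.17 SE) and Bcas1 (-0.44 ± 0.12 SE), both markers of newly formed cells, in C1ql1 (-0.45 ± 0.15 SE) and in Bmp4 (-0.23 ± 0.14 SE). Bmp4 was not among the 4 (limma unadjusted p = 0.145). Pdgfra, the growth factor receptor that defines precursors, was at 8.19, 8.01 and 8.01 in the controls and at 7.94, 8.26, 8.03, 8.10 and 8.00 in the tumour-bearing mice. Its groups overlapped, with a difference of -0.01 ± 0.08 SE and a 95% interval from -0.18 to 0.17. The difference between this list and the mature genes was not tested.

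The sterol and lipid supply genes, which feed membrane synthesis in many cell types, were below 0 in 24 of 25, with a median of -0.23 and 13 lower at an unadjusted p under 0.05. Of them 0 passed the adjusted threshold. With p-values adjusted over probe sets with 1 gene alone 3 were lower, and without tumour-bearing mouse 2, 2 were. Over all genes 0.223% and 0.232% were lower in these fits. Hsd17b7 differed by -0.46 ± 0.10 SE, Idi1 by -0.44 ± 0.09 SE, Hmgcs1 by -0.31 ± 0.06 SE and Dhcr7 by -0.30 ± 0.07 SE, all enzymes of cholesterol synthesis. In the pools all 25 were lower. Of 18 growth and inhibitory signals, 4 were lower and 1 higher at an unadjusted p under 0.05, with a median of -0.02. Of them 0 passed the adjusted threshold, and 1 was lower past it without tumour-bearing mouse 2 or with adjustment over probe sets with 1 gene alone. The unadjusted count of lower genes was 2 without control 2 or without tumour-bearing mouse 1, against 4.61% and 5.77% of all genes. The median came out above 0 without control 1 (0.0013) or without control 3 (0.0044). Fgfr2, a receptor that promotes myelin growth, differed by -0.42 ± 0.09 SE, Igf1 by -0.34 ± 0.10 SE, Id2 by -0.24 ± 0.09 SE and Hes5 by 0.18 ± 0.09 SE. The 1 higher gene was Fgfr3 (0.17 ± 0.06 SE), not Hes5 (limma unadjusted p = 0.0707).

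Markers of Schwann cells, which make peripheral myelin, were mixed. Pmp2 was at 2.30 to 2.68 and Foxd3 at 2.73 to 2.96 on the single arrays, below the filter level everywhere. Ncmap exceeded that level on only 2 of 8. Drp2, at 8.02 to 8.22, and Mpzl2, at 6.42 to 7.28, were above it on all 8, and Egr2 was above it on 3. The 3 tested members, Egr2, Mpzl2 and Drp2, had a median difference of -0.13, and their part in the result was not tested. The hypothalamic neuropeptide genes Hcrt, at 10.54 to 10.87, and Avp, at 8.92 to 9.65, were well above the filter level on all 8 single arrays. The centred mean of 13 hypothalamic markers was -0.21 to -0.13 in controls and -0.10 to 0.25 in tumour-bearing mice, higher rather than lower on average, and its part in their result was not tested.

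Markers of midbrain dopamine neurons and of serotonin neurons were lower on average in the tumour-bearing mice. Of them 0 passed the adjusted threshold (limma, lowest adjusted p 0.214 for dopamine and 0.257 for serotonin neuron genes, with 6 and 2 lower at an unadjusted p under 0.05). Lists of other regions outside the hypothalamus had median differences of 0.19 (striatum), 0.16 (cortex and hippocampus) and -0.02 (thalamus). The centred mean of 12 midbrain dopamine and serotonin neuron genes was 0.16 to 0.63 in controls and -0.81 to 0.23 in tumour-bearing mice, a difference of -0.73. All 9 tested dopamine neuron genes and all 3 tested serotonin neuron genes were below 0. Slc6a3, the dopamine transporter, was at 9.71, 9.91 and 9.80 in the controls and at 8.30, 9.67, 6.19, 8.51 and 8.47 in the tumour-bearing mice. Mouse 2 was highest and mouse 3 lowest, whereas mouse 5 was lowest for most oligodendrocyte genes. Slc6a4, the serotonin transporter, was at 3.78, 6.45 and 5.93 in the controls and at 4.19, 4.34, 4.33, 3.96 and 3.56 in the tumour-bearing mice. Tph2, which makes serotonin, was at 3.19, 5.99 and 5.13 in the controls and at 3.00 to 3.67 in the tumour-bearing mice. It exceeded the filter level on only 2 of the 8 single arrays, so it was not tested and is not in the score. Of the 3 serotonin neuron genes in the score, Slc6a4 exceeded that level on 4 arrays and Gata3 on 5. Control 1 lay with the tumour-bearing mice in both Slc6a4 and Tph2. Among the oligodendrocyte genes it lay within the tumour-bearing range in some, such as Fa2h, Myrf and Gal3st1, and above it in others, such as Opalin, Ugt8a and Aspa.

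With this neuron score as a covariate the median difference of the 29 genes was -0.041, with 21 below 0 and 8 above, and 0 were lower at an unadjusted p under 0.05, against 2.59% of all genes. Opalin then differed by -0.53 ± 0.37 SE, Ugt8a by -0.43 ± 0.26 SE, Car2 by -0.37 ± 0.25 SE, Mobp by 0.22 ± 0.11 SE and Myrf by 0.33 ± 0.16 SE. The score itself differs between the groups, so the share of the difference that goes with the tumour and the share that goes with the score cannot be told apart in the single arrays. In the control and tumour-bearing pools the score was 0.18 and 0.10, its dopamine part 0.18 and 0.19 and its serotonin part 0.21 and -0.15, and the median of the 29 genes differed by -0.21.

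**Figure D4:**
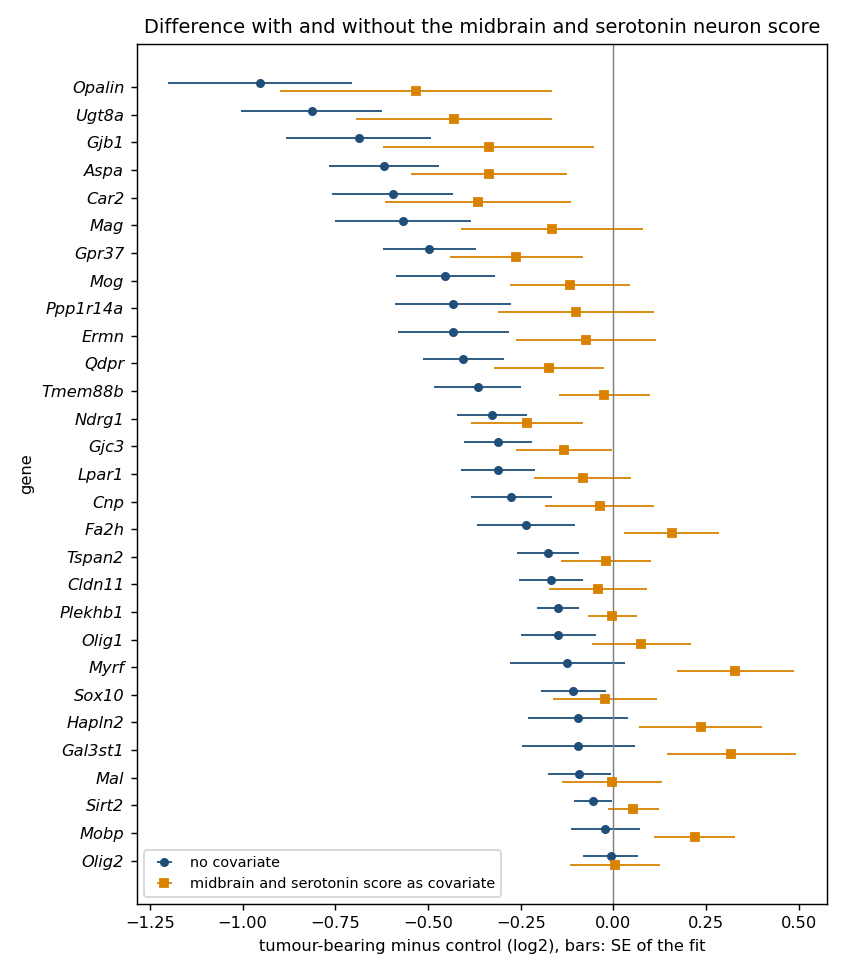
Difference of each of the 29 genes from limma without a covariate (blue dots) and with the midbrain and serotonin neuron score as a covariate (orange squares), with SE bars, in log2 units. With the covariate each of the 29 estimates lies further to the right, the bars of 28 are wider, and the median goes from -0.31 to -0.041.

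Marker lists of other regions and cell types also varied. The pituitary list was at 1.16 and 1.11 in tumour-bearing mice 3 and 4 and at 1.10 in the tumour-bearing pool, against -0.70 to -0.19 in the other 6 single mice, with Gh, growth hormone, at 10.45 and 10.48 in mice 3 and 4. Without mice 3 and 4 the median of the 29 genes was -0.29 and 13 were lower at an unadjusted p under 0.05, against 4.89% of all genes. The striatum list was at 0.59 in mouse 1 and 0.65 in the tumour-bearing pool. Without mouse 1 the median of the 29 genes was -0.31 and the count 18, against 5.77% of all genes. In 2 of the 6 striatal genes, Rgs9 (0.30 ± 0.09 SE) and Pde10a (0.37 ± 0.18 SE), every tumour-bearing mouse exceeded the highest control. That was the case for 3.11% of all genes. It also held for 2 of the 6 genes of cortical and hippocampal excitatory neurons, Nrgn (0.19 ± 0.05 SE) and Tbr1. The controls of Tbr1 lay under the filter level at 4.02 to 4.17, so it passed the filter only through the tumour-bearing mice, at 4.44 to 5.21. The centred mean of the cortical and hippocampal list was -0.28 to -0.05 in controls and -0.21 to 0.24 in tumour-bearing mice. None of the genes in either list passed the adjusted threshold (limma, lowest adjusted p 0.191).

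The centred mean of the 10 astrocyte genes differed by -0.03, with a median of 0.01, but its members went both ways. Aqp4, the water channel of astrocyte endfeet, differed by -0.51 ± 0.11 SE (limma adjusted p = 0.219) and S100b by -0.26 ± 0.07 SE, each with all 5 tumour-bearing mice below all controls, whereas Fgfr3 differed by 0.17 ± 0.06 SE and Slc1a3 by 0.13 ± 0.04 SE. The 8 microglial genes had a median of -0.19, with 7 below 0. Of 9 general neuron genes 7 were below 0, with a median of -0.07, and Nefl, a neurofilament subunit of axons, differed by -0.35 ± 0.06 SE without overlap (limma adjusted p = 0.135). The part of all these markers in the result was not tested beyond the values given here.

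**Figure D5:**
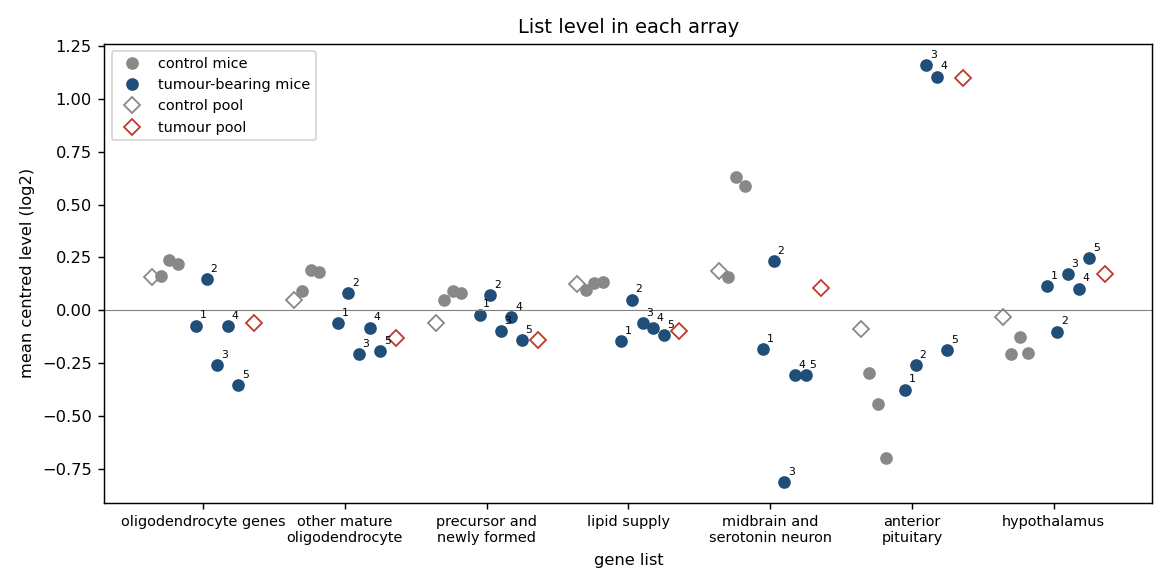
Mean centred log2 level of 7 gene lists in each array. Grey dots are control mice, blue dots tumour-bearing mice with their numbers, and diamonds the pools. In the oligodendrocyte genes tumour-bearing mouse 5 is lowest (-0.36) and mouse 2 highest (0.15), in the midbrain and serotonin list mouse 3 is lowest (-0.81), and in the pituitary list mice 3 and 4 stand apart at 1.16 and 1.11.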

How the data were processed

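Hypothalamus RNA of 8 single mice and 2 pools was measured on Affymetrix whole-transcript arrays, 1 array per sample. The authors deposited log2 expression values. RMA made them, per the submitters' processing notes. Its version and the probe set definition are not given in the sources used here, and the log2 scale was inferred from the values. The quantile step of RMA hides any shift common to all transcripts, and RMA compresses folds. Array medians were 5.30 to 5.32 in the single arrays, whose correlation over tested probe sets was 0.980 to 0.989.

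Of 35556 probe sets, 21218 were paired with 1 gene, 1881 with several, and 12457 were unnamed here. Where a gene had several, the one with the highest mean level was used. The 22837 probe sets above the filter level were fitted with limma 3.58.1 in R 4.3.3 (lmFit and eBayes with an intensity trend, two-sided, Benjamini-Hochberg adjustment over all of them), 5 tumour-bearing against 3 control arrays. The procedure was tested on simulated data. A list's level in an array is the mean log2 value centred on the 8 single arrays. No test was made over a list, because the genes and lists were chosen with earlier results of these data known. Values in every array are given for the 12 genes with the largest differences and for the smallest in each role group. Other listed genes named are the 4 with the largest differences in their list, with Pdgfra. Apod and Fgfr3 are added, each the 1 gene of its list that was higher at an unadjusted p under 0.05. Genes of the tissue check were named for their role or after their values were seen.

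The alternatives covered the filter, the variance model, array weights, scaling, the replicate block, the pools as samples, probe set choice, a neuron score as covariate and left-out mice. Promoters came from RefSeq, and figures were drawn with matplotlib 3.10.9. Precision is limited by how few arrays there were.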

Additional observations from a re-analysis of the deposited data

Results flagged for a closer look

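Among 60 sets of 5 tumour-bearing values checked for a mouse far from the others, 3 were found, a number that chance alone would give at about 1 in 20. Tumour-bearing mouse 2 had the highest Fa2h level, 8.39, against 8.08 in the next mouse. Tumour-bearing mouse 5 had the lowest Sox10 level, 5.92, against 6.13 in the next. The striatum marker list was at 0.59 in tumour-bearing mouse 1, against -0.018 in the next highest mouse.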

How the results depend on the processing

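The median difference of -0.31 stayed below 0 under all 21 alternatives, from -0.25 to -0.37 with single mice left out and -0.041 with the neuron score as a covariate. The count lower at an unadjusted p under 0.05 was 17, against 6.51% of all genes. It was 0 with the covariate, against 2.59%, and 15 to 21 with single mice left out, against 4.61% to 7.22%. With single mice left out the adjusted count was 0 to 2, against 0% to 0.232% of all genes. The count of genes without overlap was 8 to 19, a range for which no share over all genes is given. Leaving out a mouse cannot lower that count. Both counts were highest without mouse 2. Adding the pools as samples cannot raise the count without overlap. It then went from 2 to 1 in the myelin lipid enzymes and from 1 to 0 in the receptors, and stayed the same in the other role groups. In the other mature genes it went from 14 to 7. The labels do not say whether the replicate numbers pair the mice. Deviations of same-numbered mice from their group means correlated at -0.0020, 0.0084 and 0.0089. Those of differently numbered mice correlated at -0.041 to 0.030, and with so few arrays this cannot exclude pairing. With the replicate block the median was -0.26 and 14 genes were lower at an unadjusted p under 0.05, against 2.57% of all genes. So were 14 of the 38 other mature and 2 of the 16 precursor genes, and the median of the growth and inhibitory signals was 0.0085. Overlap was not recomputed where the values stay the same (variance model, weights, block, covariate). The covariate turned the sign of Fa2h (0.16), Olig1 (0.075), Myrf (0.33), Hapln2 (0.24), Gal3st1 (0.32), Sirt2 (0.053), Mobp (0.22) and Olig2 (0.0042). Without mice 3 and 4, Hapln2 (0.024), Gal3st1 (0.069), Mobp (0.078) and Olig2 (0.046) turned. Olig2 also turned with array weights (0.0015), repeated quantile normalization (0.0065) and centring on medians (0.0037), and Mobp with the pools added (0.019). With single mice left out Olig2 ranged from -0.042 to 0.036 and Mobp from -0.076 to 0.049. The cause was not tested. The alternatives for the other lists were added after seeing the data.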
